A study of Mus musculus with 6 samples.

Results

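The genes described here encode the proteins of the cytosolic ribosome. They are the rows of the count table whose Ensembl identifier maps to a protein-coding symbol that begins with Rpl, Rps or Rplp and a digit, or is Rpsa, leaving out the Rps6k kinases and symbols with -ps, and that hold at least 10 counts over the 6 libraries. In all, 84 of 49671 genes met the rule, chosen by name and not by their response. Of 86 symbols that fit, 2 were below the minimum: Rpl10l had 0 counts (3 counts, the limit that 0 allows, equal 0.160 to 0.427 CPM in a library, where CPM stands for counts scaled to equal library size) and Rpl3l had 3, while Rpl39l at 45 counts was the lowest above it, followed at a distance by Rps27rt at 1056 and Rps19bp1 at 1251. Among the 84, 50 belong by name to the large subunit and 33 to the small subunit, and Rps19bp1 encodes a nucleolar protein that binds Rps19 and is not part of the ribosome. A core of 77 genes, 46 large and 31 small, remained after Rps19bp1, the paralogues Rpl7l1, Rpl22l1, Rpl36al, Rpl39l and Rps27l, and Rps27rt, an intronless gene, were set aside.

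RNA was measured in mouse CD8 T cells that carry the OT-I transgenic receptor, which recognises the ovalbumin peptide SIINFEKL. One group of 3 libraries is labelled CD73 KO and the other group of 3 is labelled WT. Cells of both came from the spleen and were given the peptide daily at 10 ng/mL for 5 days, in medium with IL-7 and IL-15 at 5 ng/mL each. For replating, 48 h is recorded for all 6 libraries. This culture was meant to bring about exhaustion, and live cells were then sorted. CD73, the product of Nt5e, is the surface enzyme that converts AMP to adenosine, and no unstimulated or adenosine-treated cells were part of the comparison. How the Nt5e allele was made, the age of the animals, and whether libraries of 1 group are separate animals or cultures are not given in the sources used, and a p-value here is set by the spread among the 6 samples, which could be technical.

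A ribosome needs each of its proteins in about equal number, and cells make them at high rates when they grow and divide, as activated T cells do. Their mRNAs begin with a C followed by an unbroken run of pyrimidines, the terminal oligopyrimidine or TOP motif, through which mTORC1 and its target Larp1 control translation more than mRNA level. Some of the proteins have paralogues that take the parent's place in a share of ribosomes, and free Rpl5 and Rpl11 bind Mdm2 and thereby link ribosome assembly to p53.

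The start sites show this sequence feature in part. RefSeq windows on GRCm38.p6 were matched by symbol for 64 of the 84 genes. Each window printed here runs from 20 bases before to 10 bases after the annotated start, 5′ to 3′ on the gene's strand, with the longest C/T run within 10 bases of the start in capitals. The first 4 are core genes whose run covers the start, including the most abundant small subunit gene per length and the parent of Rps27l, and the other 3 are paralogues whose groups or counts stood apart below.
Rps18 (chr17:33955656-33955685, minus strand): acttatacgtcacttccgCTCTCTCTTCCa
Rps6 (chr4:86857358-86857387, minus strand): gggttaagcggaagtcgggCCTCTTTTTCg
Rps27 (chr3:90213639-90213668, minus strand): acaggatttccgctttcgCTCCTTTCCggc
Rpl35a, a further listed start (chr16:33056462-33056491, plus strand): gcgcggcggggcttgCCTTCCTCTTTCCgc
Rps27l (chr9:66946066-66946095, plus strand): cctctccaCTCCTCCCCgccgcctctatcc
Rpl7l1 (chr17:46782647-46782676, minus strand): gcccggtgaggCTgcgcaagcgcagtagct
Rpl39l (chr16:10170208-10170237, plus strand): cctagctcccaggCCTTTCCggatttccgg

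In Rps18, Rps6, Rps27 and the Rpl35a start shown the run covers the first transcribed base. By contrast, in Rps27l and Rpl39l it ends before that base, and in Rpl7l1 only 2 bases are marked. At the first listed start of Rpl35a, the one counted next, the run over the start has only 4 bases. Counting the first listed start of each gene, a C/T run of 5 or more bases covered the start in 19 of 64 ribosomal protein genes (29.7%) and in 9.95% of 27025 genes with a window. A run of 8 or more bases within 10 bases of the start was found in 27 of 64 (42.2%), against 13.5% of all genes. The letters CTTTC, read on the gene's strand within 10 bases of the start, were present in 11 of 64 (17.2%) and in 2.43% of all windows, and they can lie inside such a run. TATAAA, from 40 to 11 bases before the start on the same strand, was present in 1 of 64 (1.56%), against 2.30% of all. Annotated starts can differ by several bases from the starts used in these cells, so a missing run says only that the letters are not in this window.

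Library totals ran from 6934150 to 19382950 counts. The defining genes of CD8 T cells (Cd3e, Cd8a, Cd8b1, Trac and Gzmb) had at least 2670 counts in each library, Cd4 had at most 5, Cd79a and Ms4a1 of B cells at most 2, and the myeloid, plasmacytoid and erythroid markers Lyz2, Csf1r, C1qa, Spi1, Siglech, Hbb-bs and Hba-a1 were at 0, while the NK genes Ncr1 and Klrb1c had 1 to 8 and 7 to 65. Nt5e had 290, 49 and 263 counts in the libraries labelled WT, or 22.6, 5.22 and 37.4 CPM, against 69, 128 and 88 counts in CD73 KO, or 3.67, 8.45 and 8.47 CPM, a log2 fold change of -1.67 ± 0.72 (SE) that did not pass edgeR's quasi-likelihood test with Benjamini-Hochberg adjustment (adjusted p = 0.534) and was -1.06 without WT replicate 3. In CPM the library labelled WT replicate 2 lay within the CD73 KO range for Nt5e, so group names below are those of the labels and the summary over the genes, the share of counts and Rps27l are also given without it.

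No ribosomal protein gene passed the test between the genotypes. Of the 83 tested (all but Rpl39l, which had too few counts), 0 passed the adjusted threshold of 0.05 in edgeR's quasi-likelihood test, where 0.0572% of all 12242 tested genes did (7 genes). At an unadjusted p under 0.05 there was 1 of 83, Rps27l, against 9.64% of all tested genes. DESeq2 and limma-voom also called 0, with 2 (Rps27l and Rpl39l, the latter without an adjusted p) and 1 at an unadjusted p under 0.05. The 2 groups of libraries did not overlap for 4 of 83 genes (4.82%), against 15.2% of all tested genes: Rpl35a and Rpl23a were above WT in each CD73 KO library, and Rps27l and Rpl7l1 below. Rpl23a is named because of its values. In bulk RNA, fewer cells with a transcript and less of it per cell cannot be told apart.

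Most of the genes were slightly higher in CD73 KO, by less than the spread between libraries of a group, whose medians over these genes had an SD of 0.110 on the log2 scale. Log2 fold changes, CD73 KO against WT, were above 0 for 65 and below 0 for 18 of 83, that is 78.3% higher against 52.3% of all tested genes. Their median was 0.08, against 0.01 over all tested genes and -0.04 over the 2412 tested genes with a mean of at least 100 CPM. Among those 2412 abundant genes 39.1% were higher. No core gene differed by more than 0.25 on the log2 scale, against 13.4% of the abundant genes and 29.4% of all tested genes. Core values ran from -0.12 for Rps2 to 0.22 for Rps15a, and the 95% intervals of all 77 lay between -0.37 and 0.49. The median of 0.08 depended on single libraries: leaving out a CD73 KO library gave 0.03 (replicate 1), 0.14 (replicate 2) and 0.02 (replicate 3), leaving out a WT library gave 0.03 (replicate 1), 0.05 (replicate 2) and 0.13 (replicate 3), and the number higher ran from 49 to 78.

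**Figure D1:**
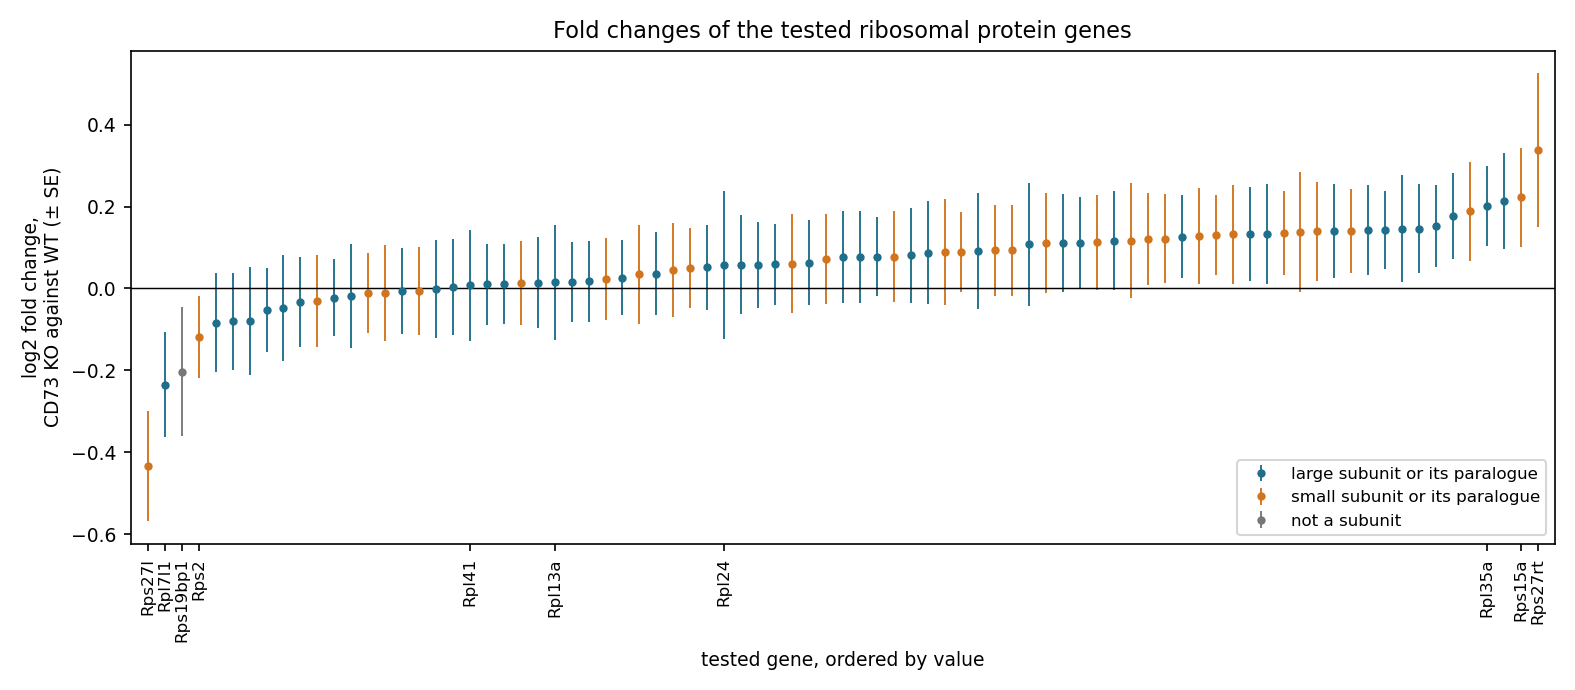
Log2 fold change (y axis) of each of the 83 tested ribosomal protein genes (x axis, ordered by value, with some genes of the text named), CD73 KO against WT, with bars of 1 standard error and 3 libraries a group; blue, large subunit; orange, small subunit; grey, Rps19bp1. Apart from Rps27l, Rpl7l1 and Rps19bp1 on the left and Rps27rt on the right, values lie between -0.12 and 0.22.

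The genes moved together from library to library, and this spread ran across the genotypes. Each gene's log2 CPM was set against its own mean over the 6 libraries. The median of these deviations was 0.08, -0.10 and 0.10 in CD73 KO replicates 1 to 3 and -0.11, -0.08 and 0.09 in WT replicates 1 to 3. In CD73 KO replicate 1, CD73 KO replicate 3 and WT replicate 3 the genes were thus high, and in the other 3 libraries low, with both genotypes on both sides. The highest library was CD73 KO replicate 1 for 30 genes, CD73 KO replicate 3 for 29 and WT replicate 3 for 22, together 81 of 83, against 54.1% of all tested genes. The lowest was WT replicate 1 for 33 genes, CD73 KO replicate 2 for 31 and WT replicate 2 for 13, together 77 of 83, against 45.7% of all tested genes. These libraries were singled out after the values were seen, and the pattern is described without a test.

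**Figure D2:**
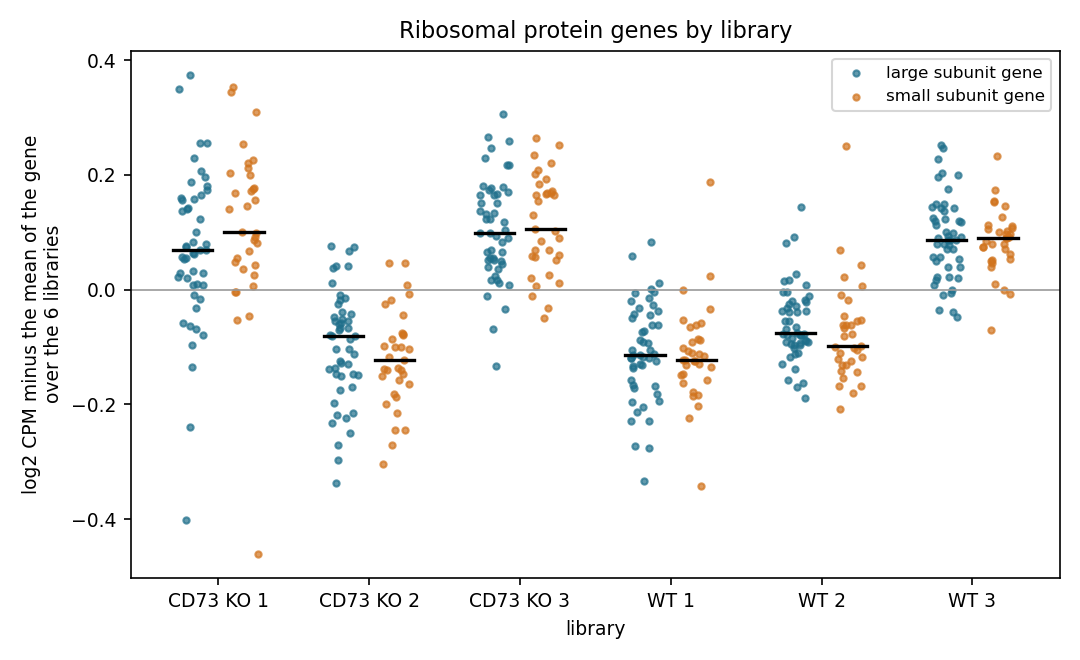
Deviation of each tested large subunit (blue) and small subunit (orange) gene from its own mean over the 6 libraries, in log2 CPM (y axis), by library (x axis); each point is 1 gene and black lines are medians. The points of CD73 KO 1, CD73 KO 3 and WT 3 lie mostly above 0 and those of CD73 KO 2, WT 1 and WT 2 mostly below, for both subunits.

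The same libraries were high and the same were low in the share of all counts that the 84 genes took. That share was 8.17%, 7.54% and 8.72% in CD73 KO and 7.37%, 7.45% and 8.50% in WT. The means were 8.14% ± 0.592 (SD, n = 3) in CD73 KO and 7.77% ± 0.629 (SD, n = 3) in WT, a difference smaller than either spread. Leaving out 1 library moved the difference of 0.371 percentage points to between 0.0821 (CD73 KO replicate 3) and 0.733 (WT replicate 3). With CD73 KO replicate 2 left out it was 0.674, with WT replicate 1 left out 0.170 and with WT replicate 2 left out 0.208. Transcript length went with the deviations to a different degree in each library: Spearman's rho across the 83 genes, a description over points that share a library, was -0.24, 0.34 and -0.17 in CD73 KO and 0.24, -0.14 and 0.01 in WT. Short transcripts thus tended to be higher in CD73 KO replicate 1 and lower in CD73 KO replicate 2 and WT replicate 1. The part of transcript length in the library pattern was not tested.

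Large and small subunit genes had similar fold changes. Large subunit genes had a median of 0.06 on the log2 scale, with 38 of 49 tested genes higher, and small subunit genes had 0.09, with 27 of 33 higher. The counts of all large subunit genes divided by those of all small subunit genes were 1.23, 1.27 and 1.27 in CD73 KO and 1.29, 1.29 and 1.26 in WT. These ranges overlapped. Large minus small medians gave -0.04 on the log2 scale, and 0.01 without CD73 KO replicate 1.

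Among large subunit genes, Rpl35a, whose human counterpart is mutated in some patients with Diamond-Blackfan anaemia, was at 495, 460 and 451 CPM in CD73 KO and 381, 408 and 434 CPM in WT. Each CD73 KO library was thus above each WT library, although the closest pair differed by less than the spread within WT. The log2 fold change was 0.20 ± 0.10 (SE), which did not pass edgeR's quasi-likelihood test (adjusted p = 0.544). Rpl23 had a log2 fold change of 0.18 ± 0.11 (SE), and its highest WT library, replicate 3, was above its lowest CD73 KO library. The values of Rpl23a were 548, 488 and 514 CPM in CD73 KO and 454, 470 and 479 CPM in WT, a log2 fold change of 0.14 ± 0.10 (SE), but 82.6% of the stretches of 50 bases in its transcript also occur in transcripts of other genes.

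Among small subunit genes, Rps15a, Rps27rt and Rps27 had the smallest p of those higher in CD73 KO. Rps15a measured 1493, 1181 and 1150 CPM in CD73 KO and 1021, 1083 and 1175 CPM in WT, so that CD73 KO replicate 1 alone stood well above the rest. Its log2 fold change was 0.22 ± 0.12 (SE), and 0.09 without that library. Rps27rt gave 334, 194 and 172 counts in CD73 KO and 141, 113 and 102 in WT, a log2 fold change of 0.34 ± 0.19 (SE). Of its 50-base stretches 91.1% occur in other transcripts, and of those of Rps27, which had 0.19 ± 0.12 (SE), 98.6%, so the split of reads between them is uncertain. On the lower side, the small subunit gene Rps2 had -0.12 ± 0.10 (SE), -0.05 with CD73 KO replicate 2 left out and -0.19 with replicate 3 of that group left out. Of the large subunit, the acidic stalk protein gene Rplp1 had -0.08 ± 0.12 and Rpl8 -0.08 ± 0.12 (SE). Rps19bp1, not a subunit gene, had -0.20 ± 0.16 (SE). None of these 7 passed edgeR's quasi-likelihood test, with adjusted p from 0.583 to 0.851.

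Genes of known separate roles were close to 0 as well. Rpl5 and Rpl11, which bind Mdm2 when free, had log2 fold changes of 0.08 ± 0.10 and 0.01 ± 0.10 (SE). Rps6, the substrate of S6 kinase, had 0.14 ± 0.10, Rps3, which also takes part in DNA repair, 0.05 ± 0.10, and Rps19, the gene most often mutated in Diamond-Blackfan anaemia, 0.03 ± 0.12. Rpl13a, which silences translation of some mRNAs in macrophages, had 0.02 ± 0.14, and Rpsa, also a laminin receptor, 0.05 ± 0.12. For the stalk that recruits elongation factors, Rplp0 had -0.03 ± 0.11 and Rplp2 -0.02 ± 0.13. The 95% intervals of these 9 genes lay between -0.30 and 0.36, so changes of 1.5-fold lay outside them.

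Of the 83 tested genes the paralogue Rps27l had the log2 fold change furthest from 0. Rps27l, a near copy of Rps27 whose transcription is raised by p53, was at 83.7, 95.4 and 120 CPM in CD73 KO and 131, 137 and 135 CPM in WT. The CD73 KO libraries were all lower than the WT libraries and more spread. Its mean in CPM was 99.7 ± 18.6 for CD73 KO and 134.5 ± 2.99 for WT (SD, n = 3), a log2 fold change of -0.43 ± 0.13 (SE) with an unadjusted p of 0.00823 in edgeR's quasi-likelihood test and an adjusted p of 0.368. Over 18 alternatives the log2 fold change stayed between -0.59 and -0.33 with the adjusted p never below 0.0558, and without WT replicate 2 it was -0.43.

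A ratio to the parent gene does not depend on how libraries are scaled. Rps27l had 12.96, 18.3 and 19.2 counts per 100 counts of Rps27 in CD73 KO and 27.5, 27.1 and 22.9 in WT. The groups did not overlap, and the mean log2 ratio differed by -0.64, CD73 KO minus WT. The exact permutation test, two-sided, gave p = 0.1, the smallest that 3 against 3 allows, so it could not reach 0.05. Benjamini-Hochberg adjustment over 5 pairs gave 0.25. That value counts the pair of Rpl39l and Rpl39, whose p of 0.1 in the same test depends on the 0.5 counts added, and it is not relied on. Leaving out 1 library, WT replicate 2 among them, gave a difference of -0.74 to -0.46. Because most of the sequence of Rps27 recurs elsewhere, the level of the parent, and so the ratio, depends on how shared reads were counted, whereas Rps27l shares 22.4% of its 50-base stretches.

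Rpl39l was nearly absent. Rpl39l, a paralogue of Rpl39 best known from male germ cells, had 7, 0 and 1 counts in CD73 KO and 24, 11 and 2 in WT. That is 0.372 CPM (95% Poisson interval 0.150 to 0.767), 0, for which the floor of 3 counts is 0.198 CPM, and 0.0963 CPM (0.00244 to 0.536) in CD73 KO, and 1.87 CPM (1.20 to 2.78), 1.17 CPM (0.585 to 2.10) and 0.285 CPM (0.0345 to 1.03) in WT; intervals cover counting error only. The groups overlapped, since WT replicate 3 was below CD73 KO replicate 1. Rpl39l was left out by the filter on low counts; with no filter it had a log2 fold change of -2.69 and an adjusted p of 0.00249 in edgeR's quasi-likelihood test, while in the 4 fits without 1 library that kept it the adjusted p was 0.192 to 0.525. Per 100 counts of Rpl39 it had 0.0763, 0 and 0.0276 counts in CD73 KO and 0.590, 0.308 and 0.0676 in WT. These ratios overlapped between the groups. Their permutation test, counted among the 5 pairs, is not read, since the 0.5 counts added set the log ratio of the library at 0. They also put WT replicate 3 (log2 ratio -10.21) above CD73 KO replicate 1 (-10.26), the reverse of the ratios without them.

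Rpl22l1, Rpl36al and Rpl7l1 also overlapped between the groups in their ratio to the parent. Rpl22l1, which binds RNA and replaces Rpl22 in some cells, had 35.8, 39.4 and 36.4 counts per 100 of Rpl22 in CD73 KO and 34.3, 37.9 and 41.8 in WT (exact permutation p = 0.8). Rpl36al had 31.9, 34.9 and 38.2 per 100 of Rpl36a in CD73 KO and 41.5, 36.8 and 36.0 in WT (exact permutation p = 0.4). For Rpl7l1, a factor of large subunit assembly rather than a replacement of Rpl7, these were 4.34, 6.02 and 5.85 in CD73 KO and 6.46, 6.82 and 5.93 in WT (exact permutation p = 0.2). The CPM of Rpl7l1 were 83.7, 109 and 115 in CD73 KO and 117, 122 and 122 in WT, without overlap, a log2 fold change of -0.23 ± 0.13 (SE, adjusted p = 0.583 in edgeR's quasi-likelihood test), and -0.11 without CD73 KO replicate 1. In both Rps27l and Rpl7l1 the lowest library was CD73 KO replicate 1.

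**Figure D3:**
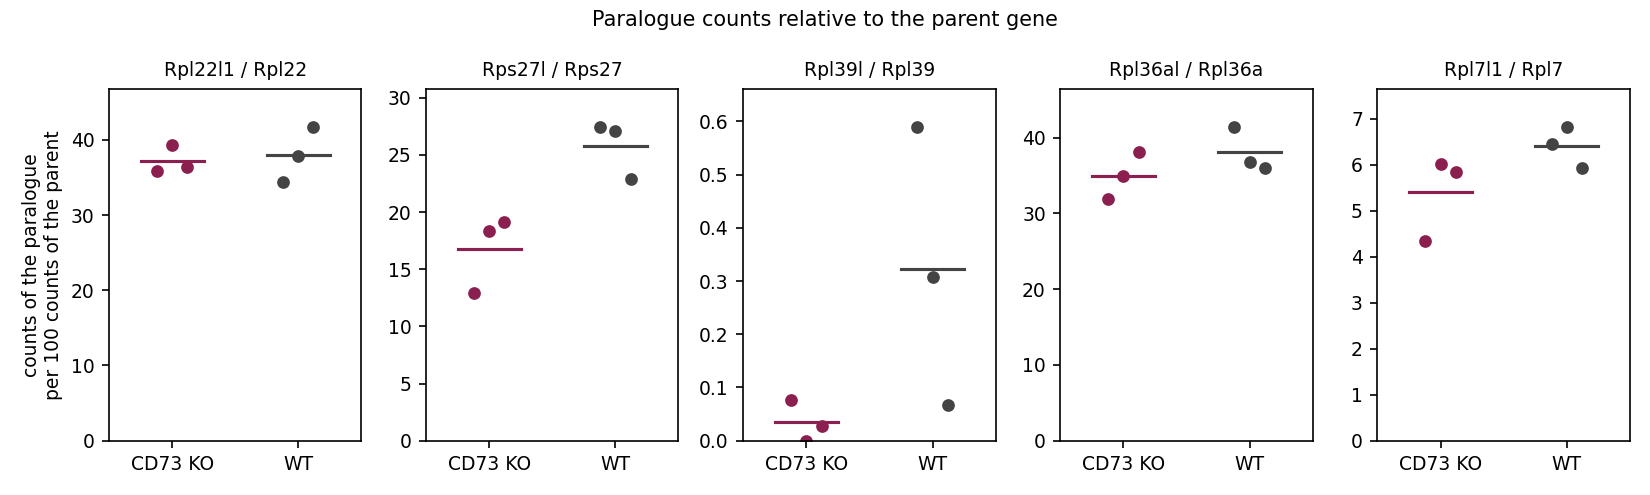
Counts of a paralogue per 100 counts of its parent gene (y axis, from 0, separate scale per panel) in the 3 CD73 KO and 3 WT libraries (x axis), for 5 pairs; points are libraries in replicate order and lines are means. Rps27l against Rps27 has no overlap (12.96 to 19.2 in CD73 KO, 22.9 to 27.5 in WT), and in the other 4 panels points of the groups overlap.

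Rps27l lies on chromosome 9 (66946086 to 66949516, GRCm38), the chromosome of Nt5e, as do 7 more of the 84 genes. Rps27l is 21.4 Mb from Nt5e. The nearest is Rpl29 at 18.1 Mb, with a log2 fold change of -0.05 ± 0.13 (SE), and Rpl4 at 24.2 Mb had 0.03 ± 0.09. Further off, Rplp1 had -0.08, Rps27rt 0.34, Rpsa 0.05, Rpl14 0.02 and Rps25, at 43.9 Mb, -0.01. Their values scattered to both sides, 4 above and 4 below 0, with a median of 0.00213, against 0.08 for the 75 tested genes on other chromosomes.

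Sequence and gene structure were set beside the fold changes. The 19 tested genes with a C/T run of 5 or more bases over the start had a median log2 fold change of 0.11 and the 44 with a window but no such run had 0.06. The 30 genes that hold a small nucleolar RNA within the gene had a median of 0.07 with 26 higher, and the 53 tested genes without one had 0.08 with 39 higher. These differences between medians were not tested. Rows with -ps, the annotated retrocopies of these genes, numbered 271, of which 181 had counts. In all they held 0.257% to 0.293% of counts in CD73 KO and 0.236% to 0.276% in WT, or 3.28 to 3.41 and 3.20 to 3.25 counts per 100 counts of the ribosomal protein genes. Of 87 tested -ps rows 0 were called. Of these rows 66 were higher in CD73 KO (75.9%, against 52.3% of all tested genes), and their median was 0.16, against 0.01. In 11 of them (12.6%) each CD73 KO library was above each WT library, against 7.59% of all tested genes. An unadjusted p under 0.05 was found in 5 of 87, against 9.64% of all tested genes. The row with most counts, Rpl14-ps1, had 27027, equal to 51.9% of those of Rpl14, so reads of the gene and the retrocopy cannot be assigned with certainty.

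Per transcript length the core genes lay close together. The median over the 77 was 1153 CPM per kb of transcript, and 64 lay within 2-fold of it. Rpl41, which encodes the smallest protein of the ribosome, was highest at 2818 CPM per kb, followed by Rpl32 at 2800 and Rps18 at 2763. Their ranges over the 6 libraries overlapped, from 2397 to 3463 for Rpl41, so the order of the 3 cannot be told. The lowest of all 84 were Rpl39l at 1.15, Rps19bp1 at 20.97 and Rps27rt at 37.7 CPM per kb, and these 3 differed from each other beyond their ranges over libraries. The order of genes was similar with coding length in place of transcript length (Spearman's rho 0.78 over 84 genes, a description), although Rps20, whose annotated transcript is 3706 bases long, went from 226.5 to 2351 CPM per kb.

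The lowest core genes per length, Rpl24 at 67.7 CPM per kb and Rpl13a at 126 CPM per kb, overlap another gene model. In Rpl24, 69.4% of the 50-base stretches also belong to the overlapping gene model Gm28037, and in Rpl13a 57.4% belong to Gm45713. Rps10, with 90.6% shared with an overlapping readthrough gene, was at 1144 CPM per kb, near the core median. Rpl24, Rps10 and, above, Rps20 are named because of these values. Over the 77 core genes the share of repeated stretches and the level had a Spearman's rho of 0.02. The setting for reads that fit several genes is not given in the sources used, and its part in these levels was not tested.

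**Figure D4:**
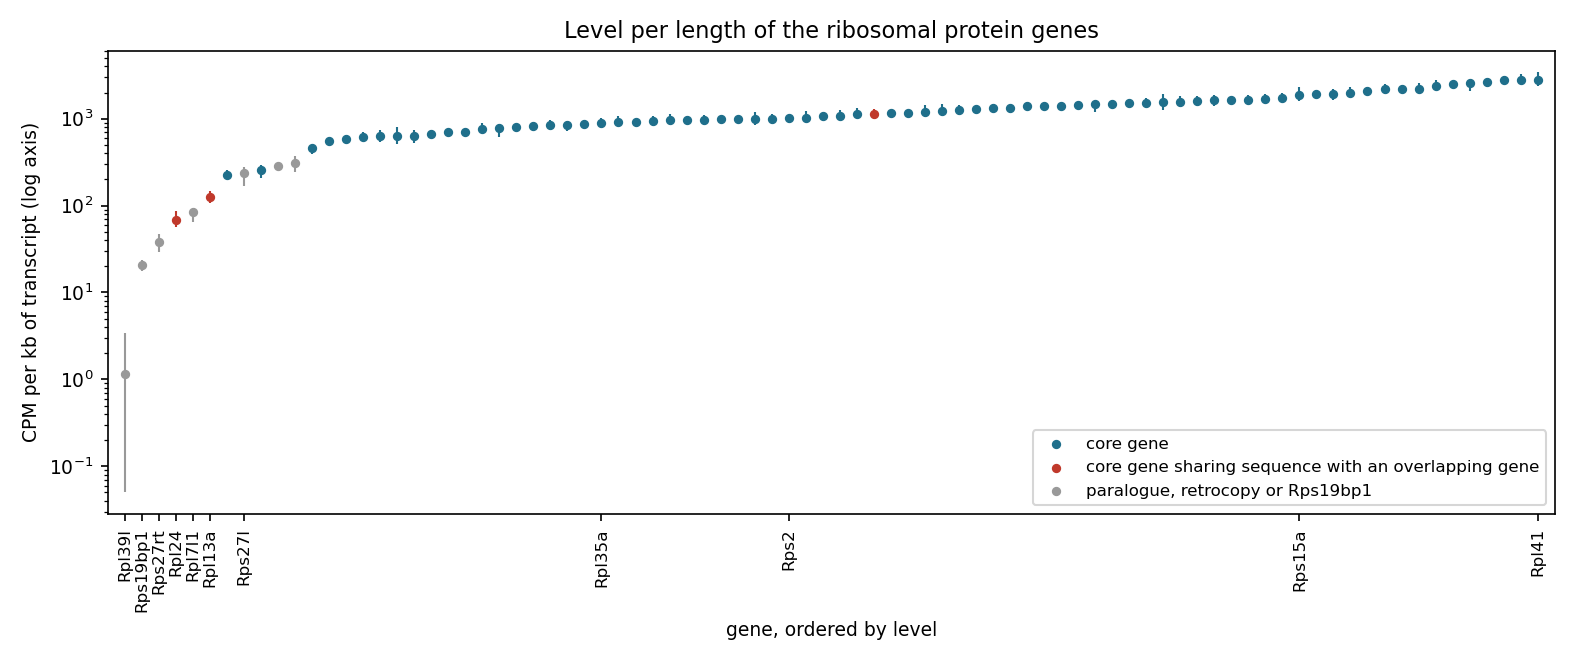
Mean level of the 84 ribosomal protein genes in CPM per kb of transcript (y axis, log scale), ordered by level (x axis, with some genes of the text named); bars run from the lowest to the highest of the 6 libraries, the bar of Rpl39l, whose lowest library is 0, is cut at the axis, and red marks core genes with over 10% of 50-base stretches shared with an overlapping gene. Core genes (blue) span 226.5 to 2818 CPM per kb apart from the red Rpl24 and Rpl13a, and the paralogues, Rps27rt and Rps19bp1 (grey) lie at the low end.

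Factors that assemble ribosomes were mostly lower in CD73 KO, without a call. The list of ribosome biogenesis factors had 60 of 62 tested genes lower and 2 higher in CD73 KO. The median over the list was -0.20 on the log2 scale, against 0.01 over all tested genes and -0.04 over those of at least 100 CPM, and 0 passed the adjusted threshold. At an unadjusted p under 0.05 there were 20 of 62, against 9.64% of all tested genes. In 25 of 62 (40.3%) CD73 KO was below WT in each library, against 7.6% of all tested genes. Among the 2412 tested genes of at least 100 CPM it was so in 320. Utp20, a component of the small subunit processome, was at 56.0, 69.2 and 59.5 CPM in CD73 KO and 89.7, 78.8 and 82.6 CPM in WT, a log2 fold change of -0.44 ± 0.12 (SE, adjusted p = 0.319 in edgeR's quasi-likelihood test). Heatr3, which brings Rpl5 into the nucleus, had -0.39 ± 0.11 (SE, adjusted p = 0.346). The library medians of the list were -0.16, -0.14 and -0.03 in CD73 KO and 0.08, 0.16 and 0.10 in WT, without overlap, unlike those of the ribosomal protein genes. Over the 18 alternatives the list's median stayed between -0.24 and -0.18.

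Proteins of the mitochondrial ribosome, a separate family made for the translation of mitochondrial mRNAs, were lower in 72 of 77 tested genes, with a median of -0.16 and 0 calls by edgeR. Higher values were found in 6.49% of them, against 52.3% of all tested genes. Only 7 of 77 had an unadjusted p under 0.05, a share near the 9.64% of all tested genes. In 14 of 77 (18.2%) CD73 KO was below WT in each library, against 7.6% of all tested genes and 320 of the 2412 abundant ones. Without CD73 KO replicate 1 the median was -0.09, and leaving out the other libraries in turn gave values down to -0.22 (CD73 KO replicate 3). Examples were Mrpl45 at -0.34 ± 0.12 and Mrps31 at -0.34 ± 0.12 (SE). Here CD73 KO replicate 3, with a library median of 0.09, lay among the WT libraries at 0.03, 0.13 and 0.10. Initiation factors had 25 of 30 lower, a median of -0.13 and 0 calls. At an unadjusted p under 0.05 there were 5 of 30, against 9.64% of all tested genes. In 10 of 30 (33.3%) each CD73 KO library was below each WT library, against 7.6% of all tested genes and 320 of the 2412 abundant ones. The library medians of this list were -0.02, -0.08 and -0.07 in CD73 KO and 0.06, 0.08 and 0.05 in WT, without overlap. The list was led by Pabpc4, a poly(A) binding protein, at -0.35 ± 0.11 and Eif1ax, which acts in start codon scanning, at -0.31 ± 0.10 (SE). Of 6 elongation factors 4 were lower, Eif5a at -0.24 ± 0.10 and Eef1d at -0.20 ± 0.12 (SE) among them, with 0 calls and 1 at an unadjusted p under 0.05.

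The smaller lists were split. RNA polymerase I genes had 6 higher and 6 lower of 12, with Rrn3, its initiation factor, at -0.29 ± 0.12 and its largest subunit gene Polr1a at -0.23 ± 0.10 (SE). Ribosome rescue and quality control had 7 of 10 lower, led by Vcp at -0.22 ± 0.09 and Hbs1l at -0.13 ± 0.10 (SE). Its library medians, -0.12, -0.02 and -0.0004 in CD73 KO and 0.02, 0.07 and 0.02 in WT, did not overlap. Of the 16 tested genes of mTORC1 and TOP mRNA control 7 were higher, among them Myc, a driver of ribosome production, at 202.5, 196 and 172 CPM in CD73 KO and 105, 113 and 176 CPM in WT. Its log2 fold change was 0.54 ± 0.18 (SE, adjusted p = 0.418 in edgeR's quasi-likelihood test), and WT replicate 3 was within the CD73 KO range. Larp4 of that list had -0.27 ± 0.11. Noncoding hosts of small nucleolar RNAs had 6 of 8 higher with a median of 0.14, which ran from 0.03 (without WT replicate 1 or CD73 KO replicate 3) through 0.09 (without WT replicate 2) to 0.28 (without WT replicate 3), among them Snhg5 at 0.44 ± 0.16 and Gas5, itself a TOP transcript, at 0.24 ± 0.12 (SE). None of these 4 lists had a call by edgeR. In the order given, 2 of 12, 1 of 10, 2 of 16 and 1 of 8 genes had an unadjusted p under 0.05, against 9.64% of all tested genes. Fau and Rack1, which encode ribosomal proteins but whose symbols fall outside the rule, had log2 fold changes of 0.15 ± 0.12 and 0.05 ± 0.10 (SE).

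**Figure D5:**
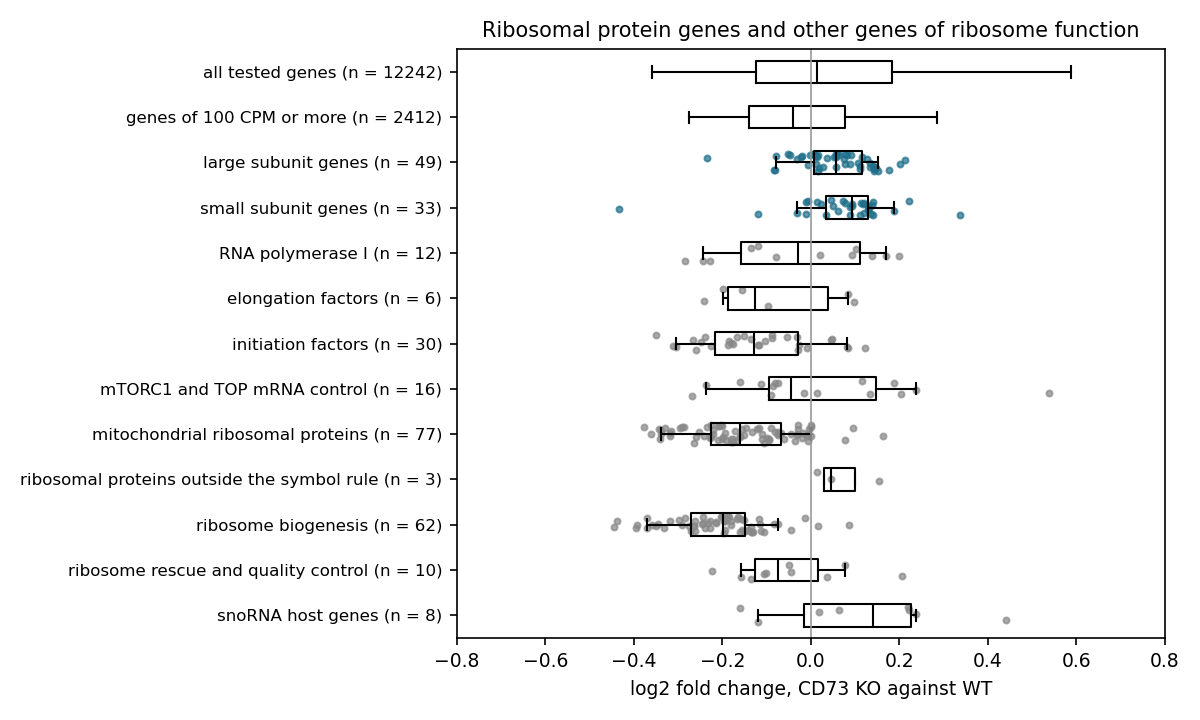
Log2 fold changes, CD73 KO against WT (x axis), of all tested genes, of tested genes of at least 100 CPM, of large and small subunit genes (blue points) and of the lists of ribosome function (grey points); boxes span the quartiles with the median, whiskers run from the 5th to the 95th percentile, and n is the number of tested genes. Ribosomal protein genes lie mostly just above 0 (medians 0.06 and 0.09), and ribosome biogenesis factors (median -0.20) and mitochondrial ribosomal proteins (-0.16) mostly below.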

How the data were processed

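RNA was sequenced from 6 libraries, 3 labelled CD73 KO and 3 labelled WT, made with a strand-preserving kit per the labels' protocols. The table holds unnormalized read counts as deposited, 1 row per Ensembl gene. Per the submitters' processing notes the tools were featureCounts, HISAT2 and fastp and the build mm10. Versions, the strand setting, the handling of reads that fit several genes and the annotation are not given in the sources used. All columns matched a sample.

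Symbols were found for 49326 of 49671 identifiers. Gene positions and transcripts are those of GENCODE M21 on GRCm38, the assembly mm10 names, and start-site windows are those of RefSeq on GRCm38.p6. A gene's length is that of the shortest basic transcript coding for its principal protein. Sequence sharing was counted as 50-base stretches found in any transcript of another gene. Genes were kept with filterByExpr (minimum count 10, minimum total 15), scaled with TMM and compared with the quasi-likelihood F-test of edgeR 4.0.16 in R 4.3.3 (robust, legacy fit), with Benjamini-Hochberg adjustment over all 12242 tested genes and a threshold of 0.05. A standard error is the fold change divided by the square root of F. Ratios of paralogue to parent, with 0.5 counts added, were compared by exact permutation tests (scipy 1.17.1). Library depth was 6934150 to 19382950 counts, at which a single count (1) stands for 0.142 to 0.0532 CPM. In simulated data 200 genes were changed, and 12057 genes, changed or not, passed the filter. Of the 65 kept genes changed 1.5-fold, 36.9% were recovered at the adjusted threshold. Recovery was 72.3% of the 65 changed 2-fold and 90.6% of the 64 changed 4-fold. Of the calls 5.84% were false.

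Named genes were Nt5e, the 6 genes of smallest p in each direction, the paralogue pairs, the 3 highest and 3 lowest per length, 10 genes of known separate roles, those on chromosome 9, those at the count minimum, and of each list the 2 of smallest p; some genes that the rule names are not reported here. The ribosomal protein genes, the lists and the tests were chosen with earlier results of these data known. Riok2, Snhg7, Polr1f, Polr1g and Polr1h of the lists were not matched. The alternatives tried were limma-voom (limma 3.58.1), DESeq2 1.42.0, the edgeR 4 fit, non-robust estimation, library size alone, RLE size factors, scaling on other genes, no filter, at least 1 CPM in 3 libraries, thinning to the smallest total, -ps counts added to the parent, the core genes, the replicate number as a block, and each library left out; scaling on other genes and coding length were chosen after seeing the data.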

Additional observations from a re-analysis of the deposited data

How the results depend on the processing

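The ribosomal protein genes had 0 calls in each alternative except without a filter on low counts, where Rpl39l (log2 fold change -2.69, adjusted p = 0.00249 by edgeR's quasi-likelihood test) was the 1 call, and Myc (0.54, adjusted p = 0.00345) was the 1 call in the lists. Over all genes DESeq2 called 99 and the fit without the filter 298, where both fitted 21315 genes, DESeq2 leaving some without an adjusted p; leaving out 1 library gave 4 to 8 calls. The median log2 fold change of the ribosomal protein genes stayed above 0 in every alternative run, from 0.02 to 0.14 with 1 library left out. The large minus small difference of medians ran from -0.045 to 0.0069 with 1 library left out, and only without CD73 KO replicate 1, at 0.0069, was it above 0. Of the values for single genes, lists, pairs and level per length, 1127 kept their direction and call or moved by less than the spread between libraries. Of the rest, 44 reversed direction, 3 moved further and 1 became stronger (Myc without the filter).

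Small fold changes of named genes crossed 0, none of them past the threshold on either side. Rpl14 was at -0.029 with its -ps counts added. Rpl36al was at 0.00323 under library size alone and 0.025 after thinning. Rpl41 was at -0.013 under limma-voom. With 1 library left out the ranges were -0.011 to 0.11 for Rack1, -0.023 to 0.067 for Rpl11, -0.097 to 0.12 for Rpl13a, -0.028 to 0.066 for Rpl14, -0.043 to 0.26 for Rpl22l1, -0.21 to 0.044 for Rpl29, -0.073 to 0.042 for Rpl36al, -0.065 to 0.20 for Rpl39, -0.011 to 0.060 for Rpl4, -0.17 to 0.11 for Rpl41, -0.030 to 0.076 for Rpl7, -0.20 to 0.0096 for Rpl8, -0.12 to 0.061 for Rplp0, -0.20 to 0.031 for Rplp1, -0.10 to 0.098 for Rplp2, -0.059 to 0.13 for Rps19, -0.059 to 0.034 for Rps25, -0.055 to 0.12 for Rpsa and -0.098 to 0.044 for the log2 ratio of Rpl22l1 to Rpl22. Without crossing 0, they were 0.054 to 0.22 for Rpl22, 0.050 to 0.24 for Rpl32, 0.028 to 0.19 for Rpl36a, 0.038 to 0.14 for Rpl5, 0.013 to 0.17 for Rps18, -0.31 to -0.14 for Rps19bp1, 0.12 to 0.28 for Rps27, 0.0068 to 0.10 for Rps3, 0.081 to 0.23 for Rps6, 0.064 to 0.25 for Fau, -0.31 to -0.13 for Eef1d, 0.15 to 0.38 for Gas5 and -0.34 to -0.18 for Larp4. The cause was not tested. The core median per coding kb was 1838 CPM, against 1153 per kb of transcript.

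Replicate numbers are shared between the groups. Same-numbered libraries correlated in their deviations from the group means at 0.15, -0.17 and 0.01. With 3 libraries a group, these values cannot tell whether same-numbered libraries share an experiment. With the replicate number as a block, 5 genes and 0 ribosomal protein genes were called, the median of the latter was 0.07 and Rpl41 was at -0.010. No CD73 KO library correlated best with the WT library of its own number, and among WT libraries only replicate 1 did so in turn. With 3 libraries a group, changes of 1.5-fold and of 2-fold can go undetected.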

Other observations

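Rps27l is a known target of p53, and other textbook targets, picked after their values were seen, were read beside it. Ccng1, a cyclin, was at 155, 184 and 193 CPM in CD73 KO and 304, 355 and 245 CPM in WT, a log2 fold change of -0.77 ± 0.14 (SE, adjusted p = 0.149 by edgeR's quasi-likelihood test). Cdkn1a, the inhibitor p21, had -0.67 ± 0.20, Zmat3 -0.60 ± 0.15 and Phlda3 -0.80 ± 0.23 (SE), with adjusted p of 0.361, 0.288 and 0.346 by the same test. For all 4 each CD73 KO library was below each WT library. Since they were picked by their values, this count cannot be compared with the 7.6% of all tested genes. Mdm2, another target, had -0.10 ± 0.17 and Trp53 itself -0.05 ± 0.10 (SE), and both overlapped between groups. Why these values differ was not tested.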
